A study of Mus musculus with 12 samples.

Results

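The Evi5 family of RabGAP genes, Evi5l, Evi5, Rabgap1 and Rabgap1l, was followed in single mouse embryos labelled as null for the homeodomain repressors Tgif1 and Tgif2, and in wild-type embryos. The members are the 4 genes of the family among the 23284 genes of the count table. The group was selected on the CDKO and WT levels of these same embryos, in which Evi5l stands out, so the genotype values of the 4 members are given as a description, with no test. Poly-A RNA was sequenced from 8 embryos labelled CDKO, and from 4 wild-type (WT) embryos. All 12 embryos were on a mixed C57BL/6 x 129Sv background and were collected whole at 9.0 days post coitum, with about 9 to 10 somites. The mutants are described as conditional double mutants, and neither the Cre driver nor the deleted exons were stated in the labels used here. No litter or batch is given, and each embryo is a separate animal.

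RabGAPs switch off Rab GTPases, the proteins that direct membrane vesicles to their targets. Their TBC domain inserts an arginine and a glutamine into the Rab active site and speeds the hydrolysis of GTP. The proteins of this family combine a TBC domain with a coiled-coil tail, and Rabgap1 and Rabgap1l also carry a phosphotyrosine-binding domain. In human cells EVI5L accelerates GTP hydrolysis by RAB23 and its excess blocks the formation of primary cilia, the antennae through which vertebrate cells receive Hedgehog signals. Human EVI5 binds RAB11 and stabilises the cell-cycle regulator EMI1, RABGAP1 (GAPCenA) is found at centrosomes and interacts with RAB6, and RABGAP1L acts on RAB22A. The series was made to find genes that Tgif1 and Tgif2 control in the early embryo.

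The mammalian TGIF homeodomain recognises the hexamer CTGTCA, and the promoter windows of the family were therefore read for it on both strands, that is for CTGTCA and its reverse complement TGACAG. The RefSeq windows (build GRCm38.p6) run from 250 bases before to 50 bases after the annotated start of transcription. Evi5l had 1 match, on the strand of the gene, with its first base at position 9 of the transcript. Evi5, Rabgap1l and both windows of Rabgap1 had 0 matches. Of all 32851 windows in the table, 6300 (19.2%) held at least 1 match, so a match is common, and neither a match nor its lack says whether a factor binds. The windows of Evi5l and of its closest relative Evi5 are shown as the pair that differs, up to base 30 of the transcript and 5′ to 3′ on the strand of the gene. Capitals mark the match, and the Evi5 window has none.
Evi5l, chr8:4166317-4166596, plus strand: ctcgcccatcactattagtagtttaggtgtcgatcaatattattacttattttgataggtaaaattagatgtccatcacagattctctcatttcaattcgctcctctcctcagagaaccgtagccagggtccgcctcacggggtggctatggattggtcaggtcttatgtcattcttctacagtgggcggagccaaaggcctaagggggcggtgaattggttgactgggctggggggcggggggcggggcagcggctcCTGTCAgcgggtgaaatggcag
Evi5, chr5:107869019-107869298, minus strand: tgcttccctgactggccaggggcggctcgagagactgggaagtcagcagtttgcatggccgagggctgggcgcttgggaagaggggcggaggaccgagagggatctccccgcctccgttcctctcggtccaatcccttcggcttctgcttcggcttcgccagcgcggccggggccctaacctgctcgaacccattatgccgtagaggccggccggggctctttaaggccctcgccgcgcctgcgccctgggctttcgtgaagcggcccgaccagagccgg

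The windows also differed in base composition. Evi5l had a G+C content of 54.3%, with 15 CG dinucleotides. For Evi5 the values were 69.7% and 30, and for Rabgap1l 73.3% and 38. The Rabgap1 windows had 66.7% and 72.0% G+C, with 23 and 27 CG dinucleotides. Over all windows the median G+C content was 52.7% and the median number of CG dinucleotides was 7. Evi5l thus lay near the middle of all promoters in G+C content, above 54.5% of them, and its relatives lay above at least 85.0% of them.

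**Figure D1:**
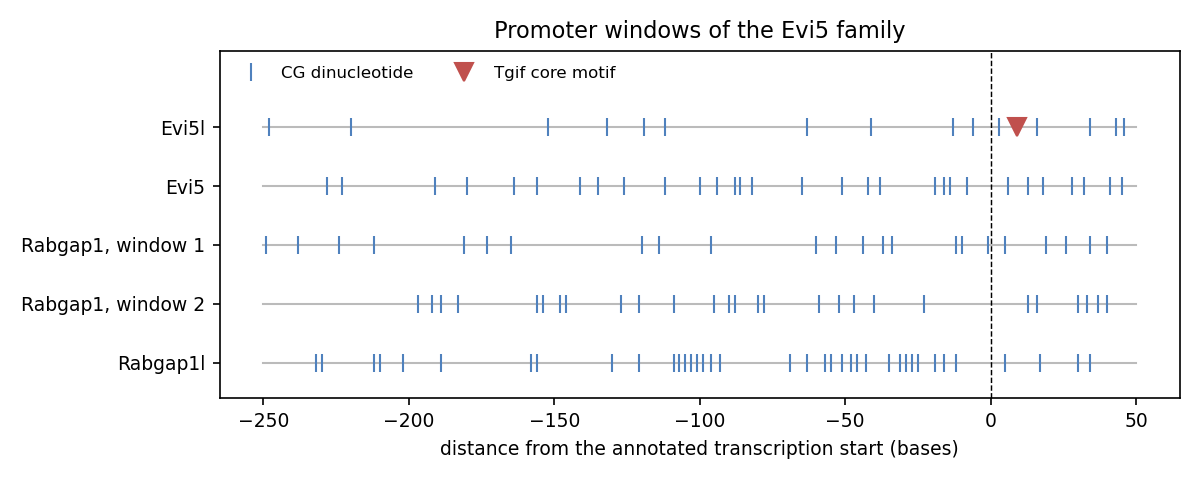
Promoter windows of the 4 members (Rabgap1 has 2), with distance from the annotated start of transcription in bases on the horizontal axis. Blue ticks are CG dinucleotides and the red triangle is the Tgif core motif, seen once, in Evi5l at position 9.

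Libraries held 16802367 to 21346245 counts in CDKO embryos and 17296017 to 20080786 in WT embryos, and levels are given as CPM, counts scaled to a common library total. Tgif1 averaged 6.20 ± 0.528 CPM in CDKO embryos (SD, n = 8) and 60.9 ± 2.52 CPM in WT embryos (SD, n = 4), and its groups did not overlap. Tgif2 averaged 97.9 ± 11.8 CPM in CDKO embryos and 87.3 ± 1.17 CPM in WT embryos, so the counts of Tgif2 do not check the label. Of the 50-base stretches in its longest transcript, 85.4% also occur in other annotated genes, among them 2 Tgif2 pseudogenes, and the labels used here do not say which part is deleted. Genes called by edgeR's quasi-likelihood test at a Benjamini-Hochberg adjusted p below 0.05 made up 51.5% of the 14412 genes tested, 26.6% of them higher and 24.9% lower in CDKO embryos. Marker levels of tissues also moved with the genotype. Of 12 heart muscle markers 10 were higher and 0 lower, and their summed level was 2412 to 4258 CPM in CDKO embryos and 1565 to 1941 CPM in WT embryos. Of 12 endothelial markers 9 were higher and 0 lower, with sums of 622 to 858 CPM in CDKO embryos and 485 to 574 CPM in WT embryos. Early neuron markers, of which 11 of 14 were tested, had 1 higher and 3 lower, with sums of 69.1 to 95.5 CPM in CDKO embryos and 89.7 to 120 CPM in WT embryos. Of 12 neural progenitor markers 1 was higher and 0 lower, with sums of 731 to 1043 CPM in CDKO embryos and 779 to 912 CPM in WT embryos. Red cell markers summed to 38.0 to 1730 CPM in CDKO embryos and 817 to 1366 CPM in WT embryos, with Hba-a1 and Hba-a2 at 0, and yolk sac markers to 781 to 3673 CPM in CDKO embryos and 686 to 2502 CPM in WT embryos, none of either list called. The part of these tissue differences in the values of the family was not tested. In whole embryos more cells of a type and more RNA per cell cannot be told apart.

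Evi5l was higher in every CDKO embryo than in any WT embryo. Its level in CDKO embryos 1 to 8 was 19.1, 18.6, 19.1, 19.5, 20.7, 17.5, 22.0 and 20.2 CPM, against 3.59, 3.19, 3.05 and 2.54 CPM in WT embryos 1 to 4. The lowest CDKO embryo thus lay several-fold above the highest WT embryo, and the groups did not overlap. These levels rest on 298 to 412 counts per library in CDKO embryos and 51 to 63 in WT embryos. The means were 19.6 ± 1.37 CPM in CDKO embryos (SD, n = 8) and 3.09 ± 0.433 CPM in WT embryos (SD, n = 4), a log2 fold change of 2.66 (SE 0.11), or 6.33-fold higher in CDKO embryos. Ranked by log2 fold change, Evi5l was number 29 of the 14412 genes tested, and 0.25% of these genes had a larger change in either direction. The median absolute log2 change over all genes tested was 0.25.

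Evi5l also varied little among the mutants. Its coefficient of variation was 7.01% over the CDKO embryos and 14.0% over the WT embryos, where the counts are low. The median over the 13300 genes with a mean of at least 1 CPM was 10.2% in CDKO embryos and 6.52% in WT embryos. No CDKO embryo therefore had an intermediate Evi5l level. The counting has one limit. On the GRCm38 annotation Evi5l shares 672 exonic bases with the antisense gene 4932443L11Rik and 489 with Prr36, both on the opposite strand, and no source used here says whether the counting used strand. If the counting did not use strand, reads of Evi5l and of these genes cannot be told apart over the shared bases. Evi5l has 8524 exonic bases in all, and neither 4932443L11Rik nor Prr36 has a row of its own that was used here.

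Evi5, the closest relative of Evi5l, differed far less and in the opposite direction. Its level in CDKO embryos ran from 34.9 to 52.2 CPM with a median of 43.9, against 50.1, 56.9, 60.1 and 59.9 CPM in WT embryos 1 to 4. In 6 of 8 CDKO embryos it lay below the lowest WT embryo, and the other 2, CDKO 1 with 51.6 and CDKO 7 with 52.2 CPM, exceeded only WT 1. The means were 44.4 ± 6.12 CPM in CDKO embryos and 56.7 ± 4.68 CPM in WT embryos, a log2 fold change of -0.35 (SE 0.10), which puts the CDKO level at 0.782 of the WT level. A change of this size was ordinary in these embryos: 36.3% of the genes tested had a larger one. Evi5 was the most variable member among the mutants, with a coefficient of variation of 13.8% in CDKO embryos and 8.25% in WT embryos.

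Rabgap1, the centrosome-associated member, ran from 52.5 to 69.3 CPM in CDKO embryos with a median of 62.6, against 74.4, 65.8, 70.3 and 66.2 CPM in WT embryos 1 to 4. Again 6 of 8 CDKO embryos lay below the lowest WT embryo and the groups overlapped, through CDKO 1 and CDKO 7. The means were 61.8 ± 5.45 CPM in CDKO embryos and 69.2 ± 4.03 CPM in WT embryos, with a log2 fold change of -0.16 (SE 0.07). Rabgap1l, the member linked to Rab22a, ran from 11.4 to 17.3 CPM in CDKO embryos with a median of 15.3, against 17.0, 14.9, 17.8 and 16.4 CPM in WT embryos 1 to 4. Here the groups overlapped over most of their range, with 2 of 8 CDKO embryos below the lowest WT embryo. The means were 14.9 ± 1.91 CPM in CDKO embryos and 16.5 ± 1.22 CPM in WT embryos, with a log2 fold change of -0.15 (SE 0.10). For both Rabgap1 genes the difference between the means was smaller than the sum of the group SDs.

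**Figure D2:**
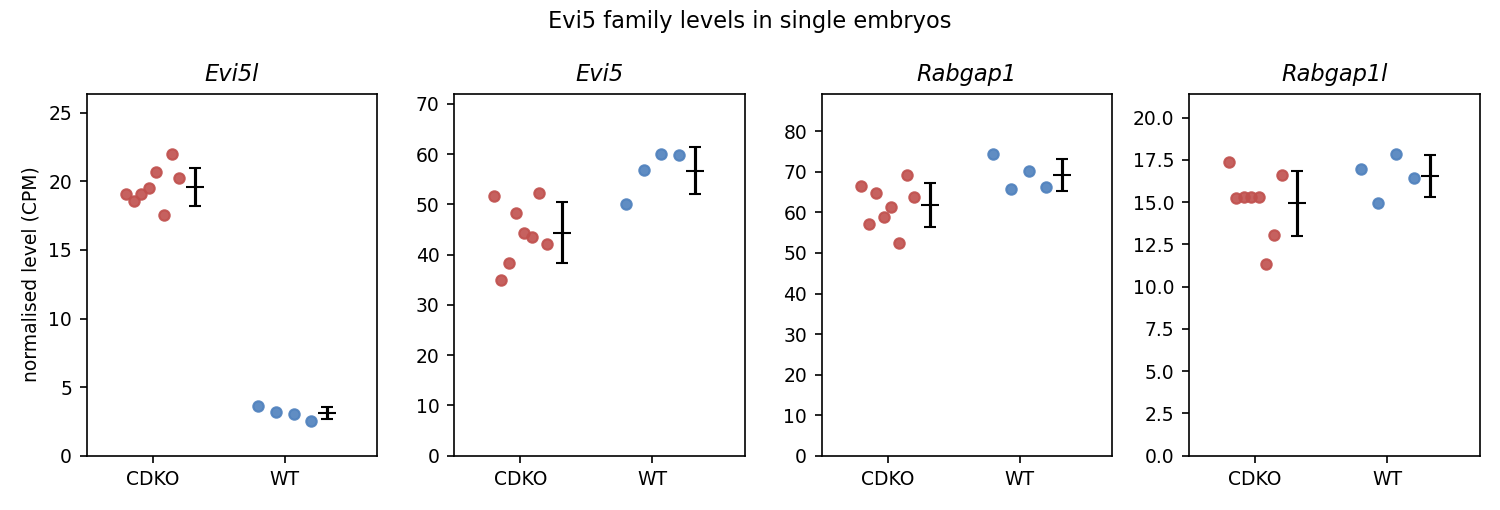
Normalised level (CPM) of the 4 members, 1 point per embryo, CDKO (8, red) left of WT (4, blue), with the mean and SD of each group as a bar beside the points; every vertical axis starts at 0. Evi5l separates the groups, at 17.5 to 22.0 CPM in CDKO embryos and 2.54 to 3.59 CPM in WT embryos, and the other 3 genes overlap.

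Across the family, 2 of 4 members, Evi5l and Evi5, lay past the 0.05 threshold, beside 51.5% of all genes tested. Evi5l was the single member whose groups did not overlap (higher in CDKO embryos), beside 34.7% of all genes tested whose groups did not overlap in either direction. Genes without overlap and higher in CDKO embryos made up 17.5% of all genes tested. The members were chosen on this contrast, so these counts carry no weight as evidence. The gene positions, by contrast, were not used in the choice: on GRCm38.p6 the 4 genes lie on different chromosomes, Evi5l on 8, Evi5 on 5, Rabgap1 on 2 and Rabgap1l on 1.

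To compare levels between the genes, CPM was divided by the length of the longest annotated coding transcript in kilobases. Rabgap1 had the highest level per length, 12.4 ± 1.10 CPM per kilobase in CDKO embryos and 13.9 ± 0.812 in WT embryos. Evi5 followed with 7.59 ± 1.05 CPM per kilobase in CDKO embryos and 9.70 ± 0.801 in WT embryos. The order of the remaining pair differed between the groups. Evi5l, with 4.97 ± 0.349 CPM per kilobase, stood above Rabgap1l, with 2.36 ± 0.301, in CDKO embryos. In WT embryos Evi5l was last, at 0.786 ± 0.110 CPM per kilobase, below Rabgap1l at 2.61 ± 0.193. Each of these neighbours in the order differed by more than their SDs. The order of Rabgap1 and Evi5 depends on the length used. Per kilobase of coding sequence alone the means were 19.4 for Rabgap1 and 18.3 for Evi5 in CDKO embryos, and 21.7 for Rabgap1 and 23.4 for Evi5 in WT embryos.

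Summed over the 4 genes, the level per length was almost the same in both groups although its makeup differed. The sum was 27.4 ± 2.20 CPM per kilobase in CDKO embryos, with a range of 24.2 to 30.5, and 27.0 ± 0.773 in WT embryos, with a range of 26.2 to 28.0, a difference smaller than either SD. Per kilobase of coding sequence the sums were 51.8 ± 4.28 CPM in CDKO embryos and 53.1 ± 1.64 CPM in WT embryos, again closer than the SD of the CDKO embryos. Evi5l made up 18.2 ± 0.886% of the sum per transcript length in CDKO embryos and 2.91 ± 0.413% in WT embryos. Evi5 made up 27.7 ± 2.58% in CDKO embryos and 35.9 ± 2.98% in WT embryos, and Rabgap1 45.5 ± 1.76% in CDKO embryos and 51.5 ± 2.49% in WT embryos. The share of Rabgap1l was 8.62 ± 1.03% in CDKO embryos and 9.65 ± 0.454% in WT embryos. Within the Evi5 pair, the ratio of Evi5l to Evi5 per length was 0.664 ± 0.0827 in CDKO embryos, with a range of 0.550 to 0.790, and 0.0821 ± 0.0183 in WT embryos, with a range of 0.0630 to 0.107. Evi5l therefore stayed below Evi5 in every embryo on this scale.

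**Figure D3:**
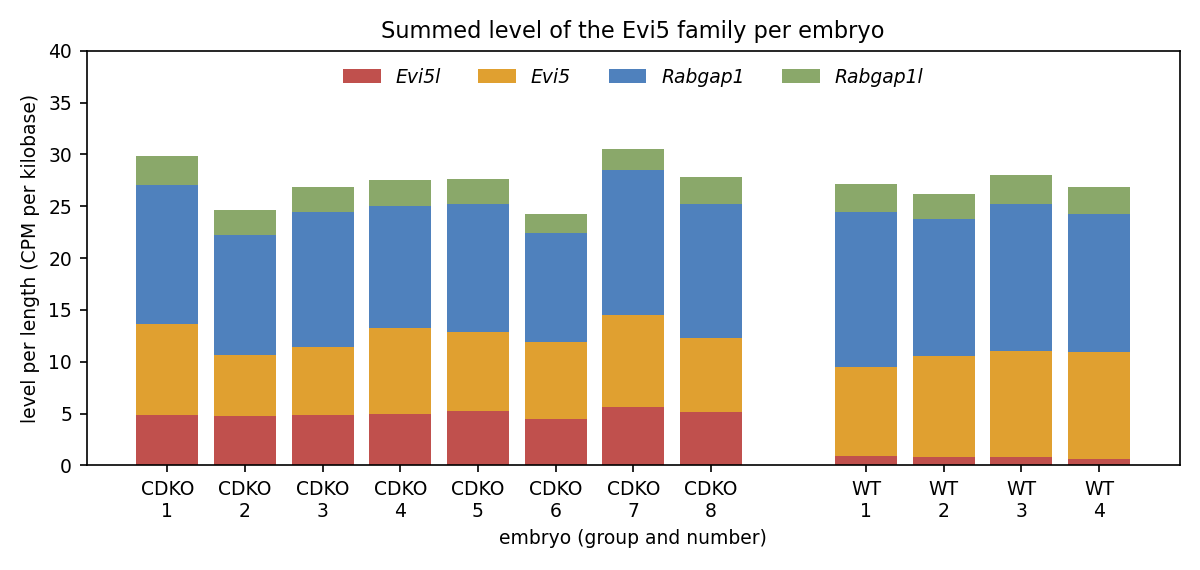
Level per length (CPM per kilobase of longest coding transcript) of the 4 members stacked for each embryo, CDKO 1 to 8 left and WT 1 to 4 right. The bars reach 24.2 to 30.5 in CDKO embryos and 26.2 to 28.0 in WT embryos, while the Evi5l segment is 4.97 on average in CDKO embryos and 0.786 in WT embryos.

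Among all TBC-domain genes, Evi5l stood in the lower middle of the scale in CDKO embryos and near its bottom in WT embryos. Of 38 TBC-domain genes with a level per length, Evi5l ranked 25 in CDKO embryos and 35 in WT embryos. Rabgap1 ranked 11 in CDKO embryos and 10 in WT embryos, Evi5 18 in CDKO embryos and 15 in WT embryos, and Rabgap1l 31 in CDKO embryos and 27 in WT embryos. The gene at the top was Tbc1d16 in CDKO embryos, with 33.4 ± 2.94 CPM per kilobase, and Tbc1d13 in WT embryos, with 34.4 ± 1.31. Of 34 tested TBC-domain genes outside the family, 17 were higher and 8 lower in CDKO embryos and 9 did not pass, with a median log2 fold change of 0.19, beside 51.5% called among all genes. Tbc1d23, a golgin-binding adaptor of the trans-Golgi, rose to 41.0 ± 6.92 CPM in CDKO embryos, against 20.7 ± 0.601 CPM in WT embryos (log2 fold change 0.99, SE 0.12, adjusted p = 8.76e-06 by edgeR's quasi-likelihood test). It had the highest log2 fold change of the 34. Usp6nl (RN-tre), a GAP of early endosome traffic, fell to 58.1 ± 2.70 CPM in CDKO embryos, against 76.0 ± 2.05 CPM in WT embryos (-0.39, SE 0.05, adjusted p = 6.89e-06 by the edgeR test). Tbc1d15, a RabGAP of mitochondria and lysosomes, fell to 56.1 ± 3.05 CPM in CDKO embryos, against 71.9 ± 2.56 CPM in WT embryos (-0.36, SE 0.05, adjusted p = 3.46e-05 by the edgeR test). On the log2 scale the change of Evi5l, 2.66, was larger than that of each of these 34 genes, a comparison that the choice of Evi5l fixes in part.

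A list of Rab GTPases, drawn up for links to the family or to the cilium and not complete, was read in the same fit, and all were tested. Of 18, 6 were higher and 3 lower in CDKO embryos and 9 did not pass, with a median log2 fold change of 0.08. The share called, 50.0%, was near the 51.5% of all genes tested. Rab23, the Rab on which human EVI5L acts and an inhibitor of Hedgehog signalling in the mouse, had the lowest p of the list. It fell to 33.3 ± 1.92 CPM in CDKO embryos, with a range of 30.6 to 36.1, against 52.7 ± 0.659 CPM in WT embryos, with a range of 52.0 to 53.5. The log2 fold change was -0.66 (SE 0.05, adjusted p = 1.18e-07 by edgeR's quasi-likelihood test), and all 8 CDKO embryos lay below all 4 WT embryos. Rab23 and Evi5l thus differed in opposite directions in the same embryos, and a link between them was not tested. Of all genes tested, 34.7% had groups that did not overlap in either direction. Rab8a, which carries membrane to the growing cilium, rose to 132 ± 4.02 CPM in CDKO embryos, against 111 ± 3.33 CPM in WT embryos (0.25, SE 0.04, adjusted p = 8.42e-05 by the edgeR test), again without overlap. Rab8b went the other way, at 55.1 CPM in CDKO embryos and 67.6 CPM in WT embryos (-0.29, SE 0.06, adjusted p = 0.00073 by the edgeR test). Rab6a was lower too, at 127 CPM in CDKO embryos and 162 CPM in WT embryos (-0.35, SE 0.06, adjusted p = 0.000155 by the edgeR test). The groups overlapped for neither Rab8b nor Rab6a. Rab3a, a Rab of regulated secretion, rose to 5.26 ± 0.901 CPM in CDKO embryos, against 2.08 ± 0.270 CPM in WT embryos (1.34, SE 0.16, adjusted p = 8.34e-06 by the edgeR test).

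Of the recycling-endosome Rabs bound by EVI5, Rab11a differed little between the groups and Rab11b was higher in CDKO embryos. Rab11a averaged 105 ± 5.67 CPM in CDKO embryos and 102 ± 2.13 CPM in WT embryos (0.05 on the log2 scale, SE 0.05, adjusted p = 0.409 by the edgeR test). Rab11b rose to 70.6 ± 4.15 CPM in CDKO embryos, against 59.8 ± 3.50 CPM in WT embryos (0.24, SE 0.06, adjusted p = 0.00207 by the edgeR test), with groups that overlapped. Rab35, a Rab of endosomal recycling and cytokinesis, averaged 116 ± 5.12 CPM in CDKO embryos and 110 ± 1.66 CPM in WT embryos (0.09, SE 0.04, adjusted p = 0.0889 by the edgeR test). Among 17 Rab11 effectors, motors and exchange factors, 5 were higher and 4 lower and 8 did not pass, with a median log2 fold change of 0.05. That is 52.9% called, again near the 51.5% of all genes tested. Sh3bp5, an exchange factor that activates Rab11, rose to 58.1 ± 4.09 CPM in CDKO embryos, against 33.4 ± 4.02 CPM in WT embryos (0.80, SE 0.08, adjusted p = 6.25e-07 by the edgeR test). Rab3il1, which encodes the exchange factor GRAB for Rab8, rose to 35.3 ± 4.53 CPM in CDKO embryos, against 23.7 ± 2.22 CPM in WT embryos (0.58, SE 0.10, adjusted p = 0.000173 by the edgeR test). Micall1, a scaffold of tubular recycling endosomes, rose to 45.4 ± 2.31 CPM in CDKO embryos, against 36.1 ± 3.38 CPM in WT embryos (0.33, SE 0.06, adjusted p = 0.000461 by the edgeR test). The 4 lower genes were Fam116a, Myo5a, Rab11fip4 and Rab3ip. Their log2 fold changes were -0.21, -0.27, -0.30 and -0.28 (edgeR adjusted p = 0.00443, 0.00906, 0.0172 and 0.00195). Rab3ip averaged 54.2 CPM in CDKO embryos and 65.6 CPM in WT embryos, without overlap.

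Of 33 tested genes of ciliary vesicle docking and early cilium assembly, 5 were higher and 11 lower and 17 did not pass, with a median log2 fold change of -0.06. The share called, 48.5%, was near that of all genes tested (51.5%), so the count is no result about the list. The 3 genes with the lowest p, all lower in CDKO embryos, included both parts of the CP110-CEP97 cap, which keeps the mother centriole from growing a cilium. Ccp110, listed under its older symbol 6330503K22Rik, fell to 45.0 ± 5.82 CPM in CDKO embryos, against 76.1 ± 3.34 CPM in WT embryos (-0.76, SE 0.08, adjusted p = 3.63e-06 by the edgeR test). Cep97 fell to 29.6 ± 2.39 CPM in CDKO embryos, against 41.1 ± 1.49 CPM in WT embryos (-0.47, SE 0.07, adjusted p = 2.70e-05 by the edgeR test). Sclt1, a distal appendage protein through which the mother centriole docks to membrane, fell to 19.3 ± 1.79 CPM in CDKO embryos, against 31.0 ± 1.55 CPM in WT embryos (-0.68, SE 0.07, adjusted p = 2.56e-06 by the edgeR test).

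A list of cell-cycle genes, which holds partners described for human EVI5 and other mitotic genes, did not move in a single direction. Of 16, 7 were higher and 4 lower in CDKO embryos and 5 did not pass, with a median log2 fold change of 0.09. Beside this stand 26.6% higher and 24.9% lower among all genes tested. Fbxo5, which encodes EMI1, averaged 98.9 CPM in CDKO embryos and 111 CPM in WT embryos (-0.17, SE 0.04, adjusted p = 0.00408 by the edgeR test). Birc5 (survivin), a subunit of the chromosomal passenger complex, rose to 213 ± 14.0 CPM in CDKO embryos, against 144 ± 2.78 CPM in WT embryos (0.56, SE 0.05, adjusted p = 5.76e-07 by the edgeR test). Kif23, the kinesin of the central spindle, fell to 124 ± 7.08 CPM in CDKO embryos, against 183 ± 1.09 CPM in WT embryos (-0.56, SE 0.05, adjusted p = 1.51e-07 by the edgeR test). Bub1, a kinase of the spindle checkpoint, fell to 146 ± 6.54 CPM in CDKO embryos, against 197 ± 6.21 CPM in WT embryos (-0.43, SE 0.04, adjusted p = 1.10e-06 by the edgeR test).

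**Figure D4:**
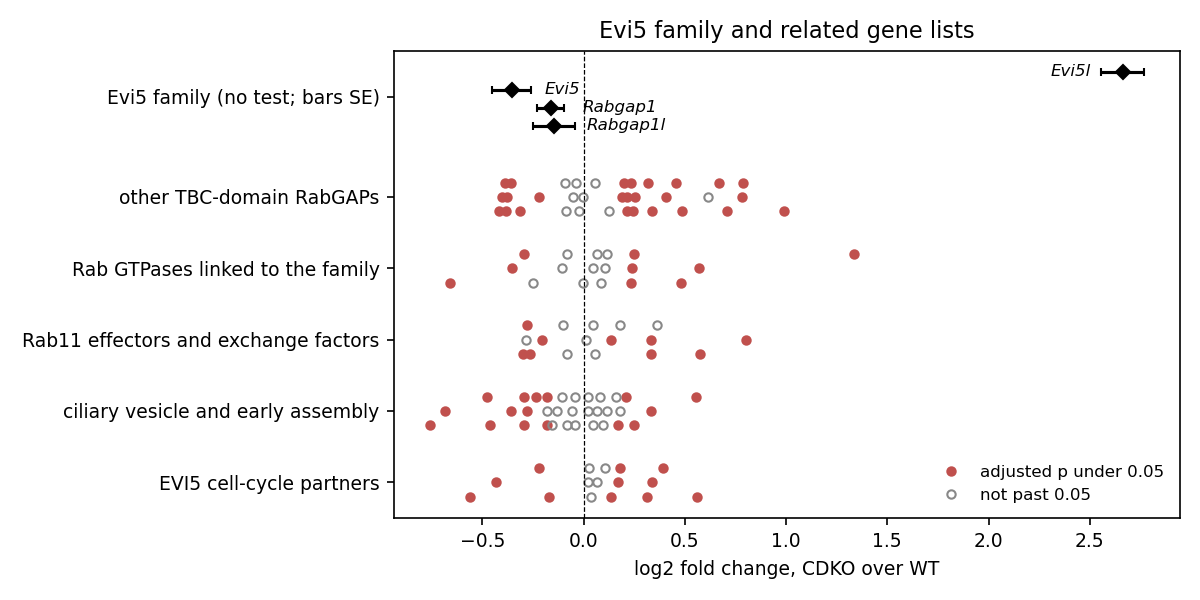
Log2 fold change (CDKO over WT) of the 4 members (diamonds, bars SE, no test) and of the tested genes of 5 related lists, 1 point per gene, filled red where the edgeR adjusted p is below 0.05. Evi5l lies at 2.66, beyond every point of the lists, whose highest value is 1.34 (Rab3a), and the other 3 members lie between -0.35 and -0.15.

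The nearest protein-coding genes on either side of the members, 3 on each side in the RefSeq order, were read in the same fit, which tested 17 of the 24. Of the 6 neighbours of Evi5l only Map2k7, a kinase of the JNK pathway, was tested, and Prr36, which shares exonic bases with Evi5l, has no row under that symbol. Map2k7 averaged 86.8 ± 5.48 CPM in CDKO embryos and 76.7 ± 5.10 CPM in WT embryos (0.18 on the log2 scale, SE 0.06, adjusted p = 0.0173 by the edgeR test), and the call was lost without WT 1 (adjusted p = 0.0569) or WT 4 (adjusted p = 0.0731). Lrrc8e had 76 counts in all 12 libraries together, and the dendritic-cell lectin genes Cd209g, Cd209f and Cd209c had 5, 1 and 4. Around Evi5, 3 of 5 tested neighbours were lower and 0 higher: Rpap2, Glmn and Mtf2, with log2 fold changes of -0.43, -0.50 and -0.32 (edgeR adjusted p = 0.0003, 2.98e-05 and 2.81e-05). Evi5 itself, at -0.35, lay within the range of these 3 genes, and a link by position was not tested. Rpl5 and Dipk1a, the other 2 tested around Evi5, had 0.08 and -0.15 (edgeR adjusted p = 0.63 and 0.138). The Rpl5 value rests on few counts, 83 to 139 per library in CDKO embryos and 96 to 121 in WT embryos. Among all genes tested, 24.9% were lower and 51.5% were called in either direction.

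Around Rabgap1 and Rabgap1l the neighbours went both ways. Of 6 tested around Rabgap1, Zbtb26 (-0.42) and Strbp (-0.43) were lower, Dennd1a (0.38) and Crb2 (0.20) were higher, and Zbtb6 (-0.15) and Rc3h2 (-0.13) did not pass the edgeR test. Strbp lies on the opposite strand and shares 118 exonic bases with Rabgap1, so some of their reads cannot be told apart if the counting did not use strand. Of 5 tested around Rabgap1l, Cacybp (-0.28) and Zbtb37 (-0.37) were lower, Mrps14 (0.51) was higher, and Rc3h1 (-0.15) and Serpinc1 (0.41) did not pass. The Zbtb37 call (edgeR adjusted p = 0.0319) was lost without WT 1, WT 3 or WT 4, with adjusted p from 0.058 to 0.0961. In all, 4 of 17 tested neighbours were higher and 7 lower, beside 51.5% of all genes called.

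Variation among the 8 CDKO embryos, which the choice of the genes did not use, gave no relation within the family that held after adjustment. Over 10 relations, the 6 pairs of members and each member with Tgif1, the lowest adjusted p was 0.289. Evi5l and Rabgap1 had the highest Pearson correlation of log2 CPM, r = 0.76 (exact permutation p = 0.0289, adjusted p = 0.289, n = 8, two-sided), with Spearman's rho = 0.62 (exact permutation p = 0.115, adjusted p = 0.492). Without CDKO 6 and CDKO 7, the embryos with the lowest and the highest Evi5l, r was 0.17. Leaving out both ends narrows the range of Evi5l, which can lower r by itself. The fall therefore does not show that r rested on these 2 embryos. CDKO 6 and CDKO 7 are also the 2 smallest libraries, with 16976338 counts in CDKO 6 and 16802367 in CDKO 7. Evi5l and Evi5 had r = 0.46 (exact permutation p = 0.246, adjusted p = 0.553) and rho = 0.60 (exact permutation p = 0.132, adjusted p = 0.492), with r = 0.34 without the same 2 embryos.

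No relation of the family with the Tgif1 signal that remained in the mutants passed the adjustment. With Tgif1, Evi5l had r = 0.13 (exact permutation p = 0.767, adjusted p = 0.917) and rho = 0.05 (exact permutation p = 0.935), and r = 0.30 without CDKO 2 and CDKO 8. Evi5 had r = -0.60 with Tgif1 (exact permutation p = 0.119, adjusted p = 0.553) and rho = -0.57 (exact permutation p = 0.151, adjusted p = 0.492), and r = -0.30 without these embryos. The other 6 relations had r between -0.25 and 0.49. The pair Rabgap1 and Rabgap1l had the value of 0.49 (exact permutation p = 0.22, adjusted p = 0.553), with rho = 0.33 (exact permutation p = 0.428, adjusted p = 0.713), and its r was 0.71 without CDKO 6 and CDKO 7. With 4 WT embryos no correlation was computed in that group.

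**Figure D5:**
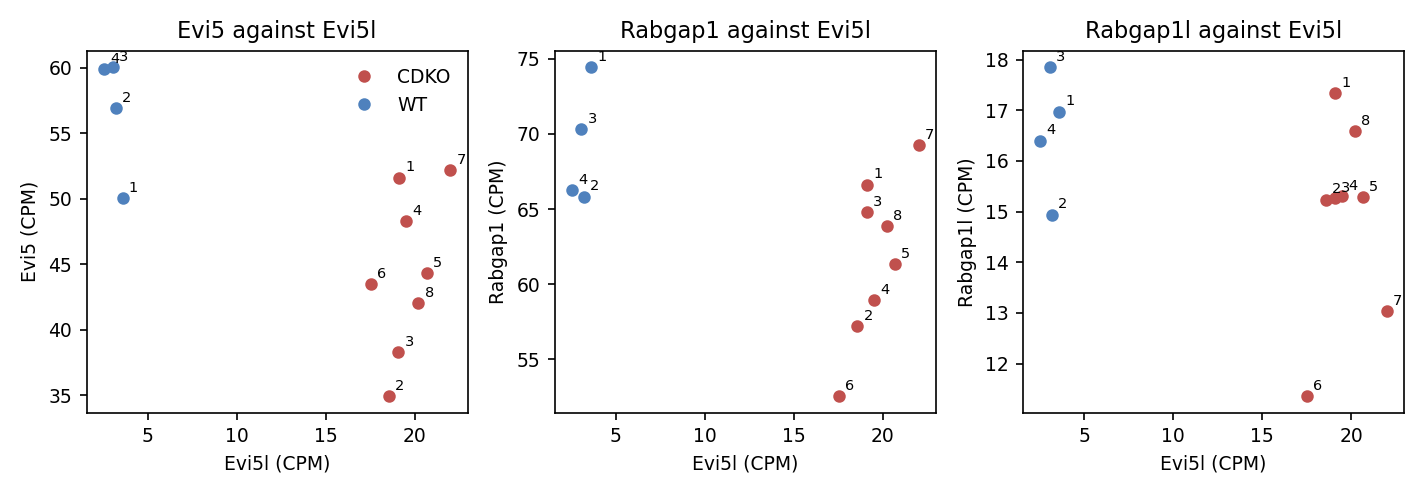
Level (CPM) of Evi5, Rabgap1 and Rabgap1l against Evi5l, 1 numbered point per embryo, CDKO red and WT blue; the vertical axes do not start at 0. The groups are apart along Evi5l in each panel and overlap along the vertical axes, and CDKO 6 and 7 lie at the ends of the CDKO range of Evi5l.

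The 5 genes with the profile most like that of Evi5l were named for all embryos and for the mutants alone. Likeness was the Pearson correlation of log2 CPM over 12386 genes with a mean of at least 1 CPM, given without a test. Over all 12 embryos, where it mainly records the gap between the groups and the libraries share their depth scaling, the 5 highest were Adamts3 (0.995), Acat1 (0.994), Dlgap1 (0.993), Cd47 (0.992) and Atg4a (0.992). Adamts3, a procollagen-processing protease, averaged 46.7 ± 3.16 CPM in CDKO embryos and 15.6 ± 1.57 CPM in WT embryos. Acat1, a mitochondrial thiolase of ketone metabolism, averaged 77.2 ± 5.33 CPM in CDKO embryos and 22.6 ± 0.580 CPM in WT embryos. Dlgap1, a scaffold of the postsynaptic density, differed more than Evi5l itself, with 15.6 ± 1.12 CPM in CDKO embryos and 0.880 ± 0.180 CPM in WT embryos. Cd47, the surface signal that restrains phagocytes, averaged 25.2 ± 1.82 CPM in CDKO embryos and 10.6 ± 0.439 CPM in WT embryos, and Atg4a, a protease of autophagy, 8.49 ± 0.626 CPM in CDKO embryos and 2.97 ± 0.250 CPM in WT embryos. On this measure Evi5 stood at -0.71, Rabgap1 at -0.53 and Rabgap1l at -0.41.

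Within the 8 CDKO embryos the 5 highest values belonged to Zfp536 (0.969), Cttnbp2nl (0.961), Erbb4 (0.956), Ids (0.955) and Zfp366 (0.955). They are the extremes of 12386 correlations over 8 embryos, among which values this high can arise without any relation, and Zfp536 and Zfp366 lie near 1 CPM, so they are a description only. Erbb4, a neuregulin receptor needed for trabeculation of the heart, averaged 3.86 ± 0.962 CPM in CDKO embryos and 2.81 ± 0.690 CPM in WT embryos. Ids, a lysosomal sulfatase, averaged 24.7 ± 1.73 CPM in CDKO embryos and 23.5 ± 2.53 CPM in WT embryos. Of these 5 genes Zfp536, a zinc-finger repressor of neuronal differentiation, passed the genotype test, with 1.60 ± 0.555 CPM in CDKO embryos and 0.618 ± 0.150 CPM in WT embryos (log2 fold change 1.36, SE 0.31, edgeR adjusted p = 0.00173). Among the same 12386 genes Rabgap1 ranked 759 in likeness to Evi5l, Evi5 3001 and Rabgap1l 4840.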

How the data were processed

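Gene counts of 12 whole embryos were analysed as deposited by the authors. Per the labels' protocols, poly-A libraries were read as paired ends of 50 bases, and the submitters' processing notes name build mm9 and the tools STAR, featureCounts, FastQC and DESeq2, with no versions. The counts are raw, and each column was matched to its embryo by name. The members and gene lists were chosen with earlier results of these data known. Genes passing edgeR's filterByExpr (14412 of 23284) were scaled by TMM and fitted with edgeR 4.0.16 (R 4.3.3), with genotype as the only term. The test was the robust quasi-likelihood F test with Benjamini-Hochberg adjustment. The procedure was tested on simulated data in which far fewer genes changed than were called here, so that test does not cover a change this wide. The p-values set the genotype difference against the spread between embryos, fitted jointly for both groups. That spread was not equal: the common biological coefficient of variation was 13.9% in CDKO embryos and 8.20% in WT embryos. Replicate libraries differed beyond sampling noise (chi-square per degree of freedom 3.89 to 27.1). Levels per length used GENCODE M21 (GRCm38) transcripts, not necessarily the models that were counted. Genes named are the members, Tgif1 and Tgif2, the 3 genes with the lowest p of each of 5 lists, 5 preset Rabs, 3 neighbours on each side, and the 5 genes most like Evi5l in each set of embryos (Xist, Y-linked and predicted genes left out). Tbc1d16, Tbc1d13, Fbxo5, Rab8b, Rab6a, Fam116a, Myo5a, Rab11fip4 and Rab3ip were named after their values were seen. Correlations used exact permutation. Alternatives were DESeq2 1.42.0, voom from limma 3.58.1, upper-quartile and RLE scaling, other filters, coding length, leaving out each embryo and, added after seeing the data, leaving out CDKO 2 with WT 1. Intervals from counting alone were not used, since embryos were replicated. Proteins of the family were not used here.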

Additional observations from a re-analysis of the deposited data

Results flagged for a closer look

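A single embryo stood apart from the rest of its group in 6 of 104 groups of values looked at (5.77%), and chance flags about 1 in 20. None of these was a member of the family. In WT embryos, Sh3bp5 was 39.4 CPM in WT 3 and 31.2 to 31.5 CPM in the others. The neighbour gene Dipk1a, listed as Fam69a, was 11.6 CPM in WT 1 and 13.1 to 13.4 CPM in the other WT embryos. Zbtb26 was 20.7 CPM in WT 1 and 17.7 to 18.1 CPM in the others. Summed levels of the EVI5 cell-cycle list reached 2889 CPM in WT 2 and 2838 to 2844 CPM in the other WT embryos. Among the mutants, endothelial markers summed to 858 CPM in CDKO 6 and 622 to 722 CPM in the others, and heart muscle markers to 4258 CPM in CDKO 2 and 2412 to 3196 CPM in the others. CDKO 6 also had the lowest Evi5l, Rabgap1 and Rabgap1l of the mutants, and CDKO 2 the lowest Evi5.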

How the results depend on the processing

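Under 20 other settings the log2 fold change of Evi5l ranged from 2.58 to 2.75, of Evi5 from -0.41 to -0.31, of Rabgap1 from -0.19 to -0.11 and of Rabgap1l from -0.19 to -0.10, with no change of sign. The counts called in each list stayed within 1.5 times their value in these settings. Per kilobase of coding length, which leaves out untranslated sequence, Evi5l had 8.03 CPM in CDKO embryos and 1.27 in WT embryos, Evi5 18.3 in CDKO and 23.4 in WT embryos, Rabgap1 19.4 in CDKO and 21.7 in WT embryos, and Rabgap1l 6.10 in CDKO and 6.77 in WT embryos. Calls for 5 single genes changed: Map2k7 lost its call without WT 1 or WT 4, Zbtb37 without WT 1, WT 3 or WT 4 or without CDKO 2 and WT 1 together, and Crb2 without CDKO 2 and WT 1 together (adjusted p = 0.062), Rc3h1 gained one without CDKO 1 (adjusted p = 0.046) or CDKO 7 (adjusted p = 0.0433), and Tgif2 gained one without CDKO 8 (log2 fold change 0.19, adjusted p = 0.0446), all by edgeR. The fewest genes, 3347 higher and 2995 lower, were called without CDKO 2 and WT 1. No paired analysis was possible because the labels give no litter or batch by which embryos could be paired. Evi5l in WT embryos rests on 51 to 63 counts per library, which limits its precision there.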
